A study of Mus musculus with 2 samples.

Results

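Glutathione is the main small thiol antioxidant of mouse cells. It is made by glutamate-cysteine ligase and glutathione synthetase, used by peroxidases and transferases, regenerated by glutathione reductase and broken down outside the cell by gamma-glutamyltransferase 1, the product of Ggt1. Neutrophils, the short-lived granulocytes that kill microbes with an oxidative burst, rely in part on this cycle to withstand their own oxidants, and gamma-glutamyltransferases also convert leukotriene C4 in inflamed tissue. The 9 genes described here were Ggt1, Gclc, Gclm, Gss, Gsr, Gpx1, Gpx4, Mgst1 and Gstm1, of 32285 genes listed in both matrices. They were taken by symbol, and all 9 were found. Ggt1 was chosen because it had been seen to be higher in neutrophils of the high dose group, and the other 8 for their place in the same metabolism. The high dose values of Ggt1 in neutrophils are therefore a description.

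The study profiled single cells from BALB/cAnNCrl mice bearing liver metastases of 4T1, a mammary carcinoma cell line that was placed through the spleen, part of which was then removed. The vehicle (hashtag A0301), a low dose (A0305) or a high dose (A0310) of CBL0137, a drug that loosens the binding of DNA to histones, was given, and cells were collected 5 days later from 2 mice pooled per group. The paper describes female mice, with vehicle or drug infused into the hepatic artery. The cells of all 3 groups were run together, 1 droplet library being named liver and 1 spleen. The labels call the cells leukocytes, while the methods describe isolation on CD11b beads, and lymphocytes were plentiful in the matrices. Each group was 1 pooled sample in each library, so no test was possible, and intervals are exact 95% intervals that cover counting error only, not the difference between mice.

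The tissue labels went against the transcripts. Clec4f, a marker of liver-resident macrophages, had 0 UMIs (unique molecular identifiers, counted RNA molecules) in the liver-labelled library, which allows a level of up to 0.0437 UMIs per 1e+06 UMIs of the cells (CPM), and 125 CPM in the spleen-labelled library. The summed hepatocyte markers stood at 0.0874 CPM and 96.0 CPM. The libraries are therefore called liver-labelled and spleen-labelled throughout. There were 9591 barcodes, at a median depth of 4673 UMIs, in the liver-labelled library and 4830, at 3368.5 UMIs, in the spleen-labelled library. A hashtag was assigned to 8435 and 2988 of these cells, and 15 barcodes occurred in both libraries.

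Cells were grouped by clustering without the 9 genes, and a cluster was called neutrophil-like when its fixed markers (S100a8, S100a9, Csf3r, Retnlg and others) passed. The neutrophil-like cells of the liver-labelled library numbered 1439 in the vehicle group, 1294 at the low dose and 209 at the high dose. Those of the spleen-labelled library numbered 280, 534 and 96. Their median depth differed between groups, with 4354, 5694.5 and 18272 UMIs per cell in the liver-labelled library and 3402, 3762.5 and 10878.5 in the spleen-labelled library.

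Ggt1 had its highest level in neutrophil-like cells. The gene lies at chr10:75561604-75586200 on the plus strand of mm10. Gclm and Gsr each overlap another annotated gene on the same strand, and Gstm1 has close relatives in its gene family. Reads of Gclm, Gsr and Gstm1 may therefore have been split or left out in counting. Gss overlaps annotated genes on the opposite strand only. In vehicle cells of the liver-labelled library Ggt1 stood at 104 CPM (98.3 to 110, 1254 UMIs) in neutrophil-like cells. It was at 14.0 CPM (10.4 to 18.4) in granulocyte progenitor-like cells and 11.1 CPM (7.65 to 15.6) in T cell-like cells. Monocyte-like cells stood at 1.20 CPM (4 UMIs), B cell-like cells at 0.953 CPM (2 UMIs), and the 63 macrophage-like cells held 0 UMIs, which allows up to 12.6 CPM. The interval of the neutrophil-like level lay clear of the next class, whereas those of progenitor-like and T cell-like cells overlapped. The neutrophil-like level was 7.42 times that of progenitor-like cells, with a log2 ratio of 2.89 (2.49 to 3.32).

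The order in the spleen-labelled library was the same at the top. Vehicle neutrophil-like cells held 162 CPM of Ggt1 (142 to 184, 243 UMIs) and progenitor-like cells 6.75 CPM (4.18 to 10.3). Monocyte-like, macrophage-like and hepatocyte-like cells of the vehicle group each held 0 UMIs, which allows up to 3.97, 3.90 and 26.5 CPM. In the hepatocyte-like cluster the median share of mitochondrial UMIs was 90.5%, and the main clustering applied no mitochondrial filter. With those groups set to a floor of 3 counts, neutrophil-like cells were 40.9-fold higher than monocyte-like cells and 41.6-fold higher than macrophage-like cells. The exact lower bounds of these ratios were 5.04 and 5.07 on the log2 scale.

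The 8 other members were spread over more classes, which are ordered here among those with at least 50 vehicle cells. Gclm, the modifier subunit of glutamate-cysteine ligase, had 151 CPM in vehicle neutrophil-like cells of the liver-labelled library, next to 166 CPM in progenitor-like cells with overlapping intervals, and 20.5 to 104 CPM in the 5 other classes of that size. The 41 vehicle cells called stem and early progenitor-like, too few for the order, stood at 220 CPM (195 to 246). Gclc, the catalytic subunit of the same enzyme, had the opposite order for this class. It was lowest in neutrophil-like cells, at 2.57 CPM (1.75 to 3.65, 31 UMIs). That interval overlapped the one of progenitor-like cells, at 5.50 CPM (3.36 to 8.49). Gclc was highest in T cell-like cells, at 30.3 CPM (24.4 to 37.3), overlapping the next classes. The smaller stem and early progenitor-like class held 33.9 CPM (45 UMIs). Gss, which adds glycine in the second step of synthesis, was also lowest in neutrophil-like cells, at 2.32 CPM (1.54 to 3.35). Its interval too overlapped that of progenitor-like cells, at 5.22 CPM. Gclc and Gss in the spleen-labelled library had their lowest levels among classes of at least 50 vehicle cells in neutrophil-like cells, at 3.34 CPM (5 UMIs) and 1.33 CPM (2 UMIs). Gss rests there on those 2 UMIs, and several smaller classes held 0.

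Gsr and Gpx1 had their highest levels in the same 3 classes. Gsr, glutathione reductase, had 306 CPM in progenitor-like, 201 CPM in monocyte-like and 143 CPM in neutrophil-like cells of the liver-labelled library, with no overlap of intervals. Macrophage-like cells had 41.9 CPM, T cell-like cells 15.5 CPM and B cell-like cells 7.15 CPM. Progenitor-like cells were also highest in the spleen-labelled library, at 243 CPM. There neutrophil-like cells (165 CPM, 145 to 187) stood above monocyte-like cells (122 CPM, 98.0 to 149), with overlapping intervals. In the liver-labelled library the levels of Gpx1 and Gpx4 were as follows. Gpx1, the main cytosolic glutathione peroxidase, stood at 2676 CPM in monocyte-like, 2317 CPM in progenitor-like and 1593 CPM in neutrophil-like cells. Dendritic cell-like and macrophage-like cells came next, at 1252 CPM (1143 to 1369) and 1132 CPM (1001 to 1275). T cell-like cells had 178 CPM. Gpx4, which reduces lipid peroxides in membranes, was more even, from 201 CPM in B cell-like to 570 CPM in macrophage-like cells.

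The transferases split. Mgst1, a membrane-bound glutathione transferase, was abundant in monocyte-like (525 CPM), neutrophil-like (418 CPM) and progenitor-like cells (313 CPM) and was at 3.37 CPM in T cell-like cells. Gstm1, a cytosolic transferase of the mu class, had 94.8 CPM in monocyte-like and 55.2 CPM in progenitor-like cells but 4.06 CPM (3.00 to 5.37) in neutrophil-like cells. The highest Gstm1 level of the spleen-labelled library, 203 CPM (129 to 304.9, 23 UMIs), was in hepatocyte-like cells. Those UMIs came from 6 of 55 vehicle barcodes, in the cluster where the median mitochondrial share was 90.5%.

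**Figure D1:**
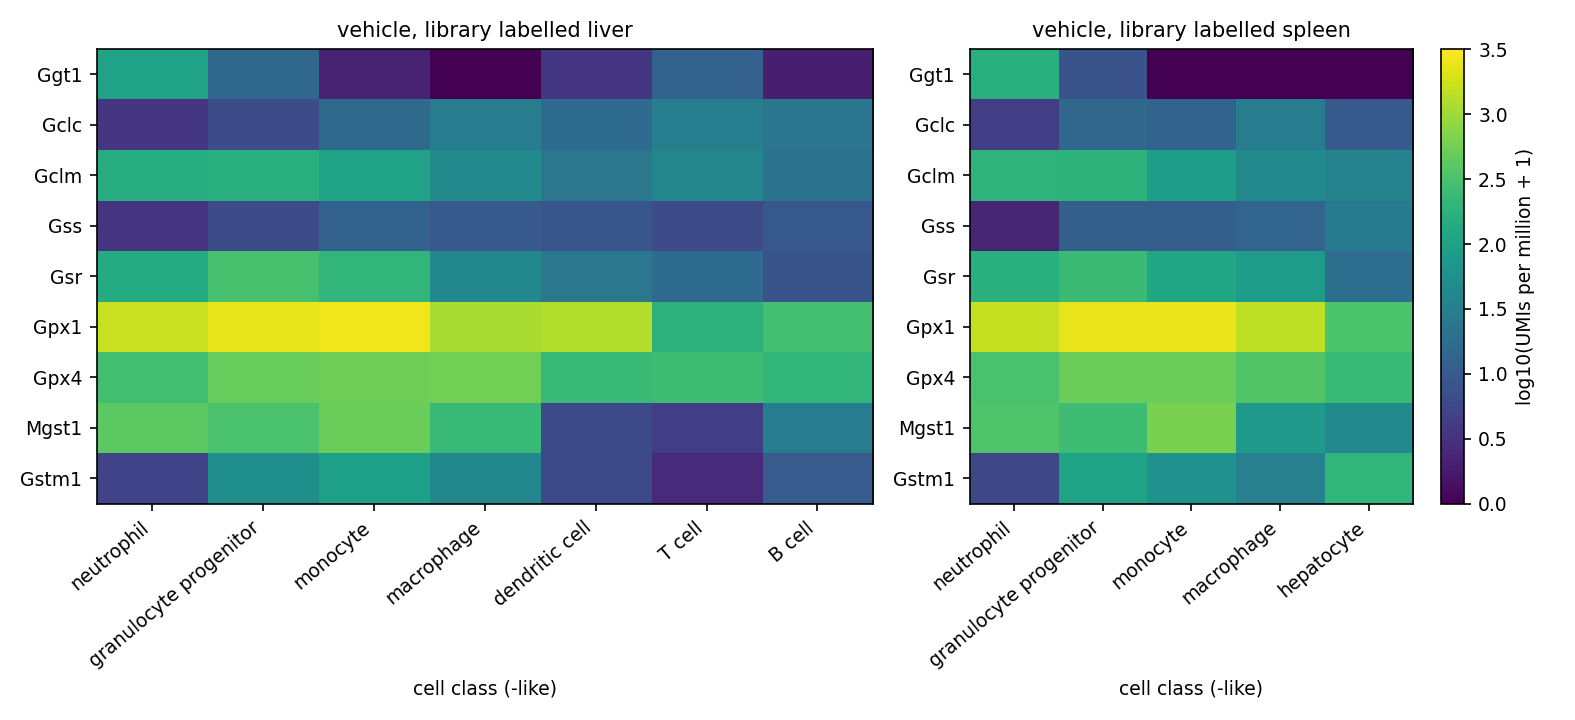
Colour gives the level of each of the 9 members as log10(CPM + 1) in vehicle cells, for each cell class with at least 50 vehicle cells (columns) in the liver-labelled library (left) and the spleen-labelled library (right). Ggt1 is bright only in the neutrophil-like column (104 and 162 CPM), where Gclc (2.57 and 3.34 CPM) and Gss (2.32 and 1.33 CPM) are dark, while Gpx1, Gsr and Mgst1 are bright across the neutrophil, progenitor and monocyte columns. Gpx1 is also bright in the dendritic cell and macrophage columns of the left panel (1252 and 1132 CPM), and Mgst1 in its macrophage column (235 CPM).

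In neutrophil-like cells Ggt1 was higher at the high dose than in the vehicle group in both libraries. Its level in the liver-labelled library was 104 CPM in the vehicle group, 109 CPM (103 to 116, 1213 UMIs) at the low dose and 283 CPM (267 to 300, 1131 UMIs) at the high dose. The vehicle and low dose intervals overlapped and the high dose stood apart from both. The high dose was 2.73-fold over vehicle, a log2 ratio of 1.45 (1.33 to 1.56). The low dose ratio was 0.07 (-0.04 to 0.19).

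Ggt1 in the spleen-labelled library was at 162 CPM in the vehicle group, 128 CPM (115 to 143, 318 UMIs) at the low dose and 307 CPM (274 to 342, 330 UMIs) at the high dose. The high dose was again above both others, and the low dose was the lowest of the 3. The high dose ratio was 1.89-fold, 0.92 on the log2 scale (0.68 to 1.16), and the low dose ratio was -0.34 (-0.58 to -0.09). Markers of other cell types were measured in the same cells. The summed monocyte markers were at 630, 964 and 819 CPM in the liver-labelled library and 488, 755 and 499 CPM in the spleen-labelled library. The summed hepatocyte markers were at 0.0829, 0.0901 and 0 CPM in the liver-labelled library, with at least 7 of 8 at 0, and at 94.7, 103 and 441 CPM in the spleen-labelled library, with none at 0. Alb, the most typical hepatocyte transcript, was itself at 21.3, 23.4 and 18.6 CPM there, so the higher sum came from other markers of the list. Their part in the Ggt1 values was not tested. Both doses were set against the same vehicle cells, so the ratios are not independent of each other.

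The UMIs were not those of a few cells. At the high dose 191 of 209 neutrophil-like cells of the liver-labelled library held at least 1 Ggt1 UMI, and the highest cell held 21 of the 1131 UMIs. The spleen-labelled library had such UMIs in 86 of 96 cells, and the highest cell held 15 of 330. Because the high dose cells were deeper, each cell was also thinned to 1000 UMIs. The share of cells with a Ggt1 UMI was then 6.51% (5.28 to 7.91) in the vehicle group, 8.16% (6.72 to 9.79) at the low dose and 25.2% (19.5 to 31.7) at the high dose of the liver-labelled library, with 10, 7 and 3 shallower cells left out. Before thinning the shares were 29.95%, 35.9% and 91.4%. In T cell-like cells, at median depths from 4673 to 5041 UMIs, the thinned share was 1.05% to 1.47%, and in B cell-like cells no thinned cell had a Ggt1 UMI (0 of 485 vehicle cells, which allows up to 0.619%). The thinned shares in the spleen-labelled library were 8.49%, 9.25% and 22.9%. Thinning was a random draw of UMIs, and the intervals leave out the spread between draws. The order of the vehicle and low dose shares was therefore not read.

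**Figure D2:**
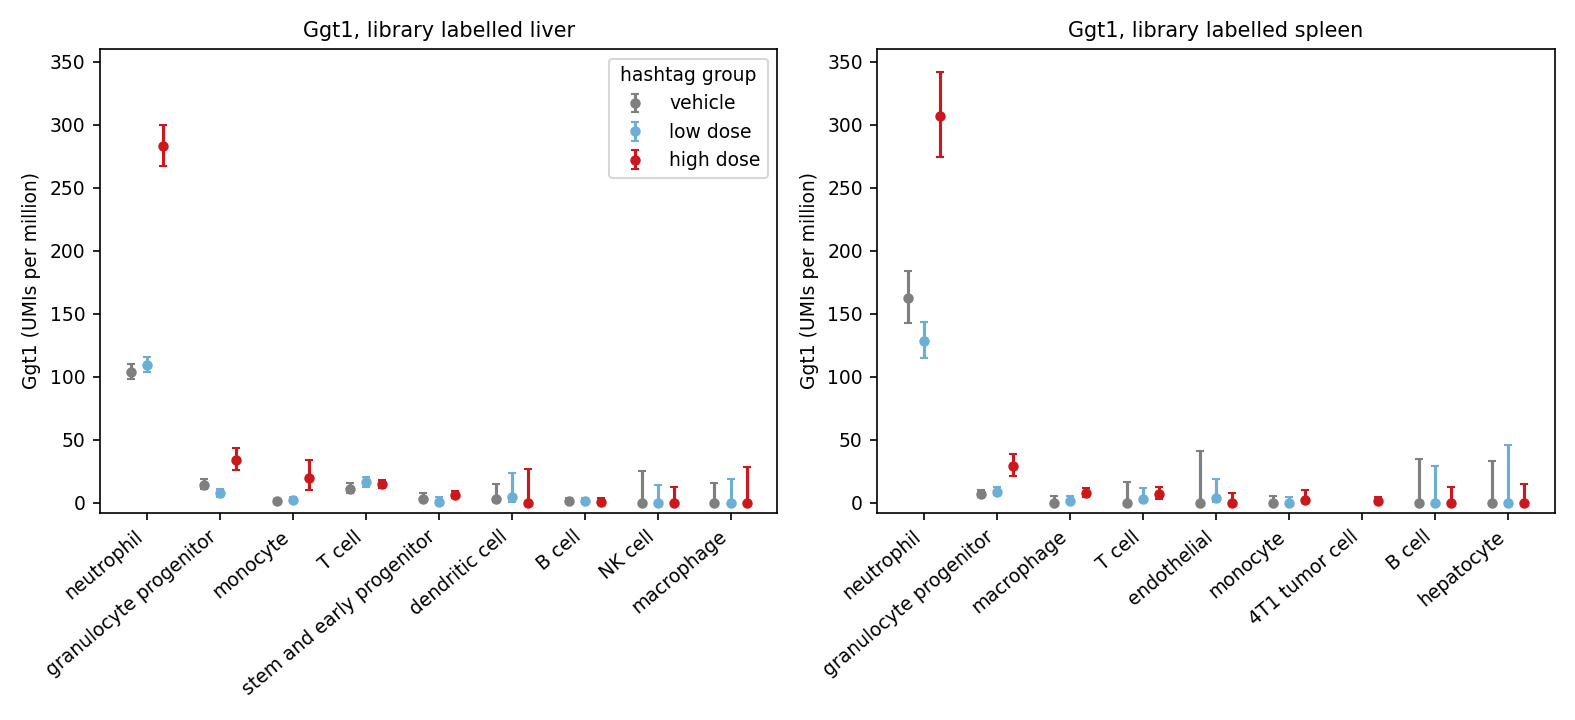
Points give the Ggt1 level in CPM by cell class and hashtag group, for classes with at least 20 cells in the group, and bars are exact 95% Poisson intervals of the counts. In both panels the high dose neutrophil-like point (283 and 307 CPM) lies above the vehicle and low dose points, and no other class is above 34.0 CPM.

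Different clusters held most of the neutrophil-like cells in the different groups, and Ggt1 was not level among them. Clusters 2 and 3 of the liver-labelled library had Il1b among their leading genes, though Saa3 came first in cluster 2. They held 45.1% and 24.5% of the vehicle cells of the class. Cluster 4, led by the stefin genes Stfa3 and Stfa2, held 17.8%. At the high dose cluster 4 held 76.6%. The Il1b-led cluster 0 of the spleen-labelled library held 54.3% of vehicle cells and the stefin-led cluster, also numbered 4, 23.9%, against 74.0% at the high dose. These shares describe the makeup of the class and are not offered as a result, since the genes that define the clusters also differ between the groups.

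Ggt1 had its highest levels in the same kinds of cluster in both libraries. Over all groups it stood at 194 CPM in the stefin-led cluster 4 of the liver-labelled library. Cluster 8 of that library, with Prok2, Retnlg and Mmp8 among its leading genes, had 235 CPM. Clusters 2 and 3, with Il1b among theirs, had 49.5 and 37.2 CPM. Cluster 12, led by the granule genes Ltf, Camp and Ngp, had 51.9 CPM. Of the spleen-labelled clusters, the stefin-led cluster 4 and the Retnlg-led cluster 8 both had 230 CPM, and the Il1b-led cluster 0 had 31.8 CPM. Cluster 12 of that library, of which 119 of 124 cells were of the low dose, had 129 CPM. The median depth was 15182 UMIs in cluster 4 and 3305.5 in cluster 2 of the liver-labelled library. Ggt1 was among the 10 leading genes of clusters 4 and 8 although it had been left out of the clustering.

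Within the stefin-led cluster the high dose level remained above vehicle. In the liver-labelled library cluster 4 held 158 CPM of Ggt1 in vehicle cells (690 UMIs in 256 cells), 147 CPM at the low dose (518 UMIs in 243 cells) and 296 CPM at the high dose (926 UMIs in 160 cells). Only the high dose interval (277 to 315) stood apart. The ratio was 1.87-fold, a log2 ratio of 0.90 (0.76 to 1.05), at median depths of 15622 and 18462 UMIs. Cluster 8 had Ggt1 at 206 CPM for the vehicle group and 404 CPM for the 21 cells of the high dose, and their log2 ratio was 0.97 (0.67 to 1.27). Cluster 4 of the spleen-labelled library gave 196, 150 and 321 CPM, and its high dose ratio was 1.63-fold, 0.71 on the log2 scale (0.40 to 1.02).

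When the vehicle group was given the cluster makeup of the high dose group, which was tried once the clusters had been seen, the log2 ratio was 0.92 in the liver-labelled library and 0.63 in the spleen-labelled library, against 1.45 and 0.92 without that adjustment. Thinned to 1000 UMIs, 11.4% (7.78 to 16.0) of vehicle and 26.4% (19.7 to 34.0) of high dose cells of cluster 4 had a Ggt1 UMI in the liver-labelled library. The same shares were 19.4% (10.8 to 30.9) and 26.8% (16.9 to 38.6) in the spleen-labelled library, where the intervals overlapped. These cluster shares came from a different random draw than the class shares and do not add up to them.

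**Figure D3:**
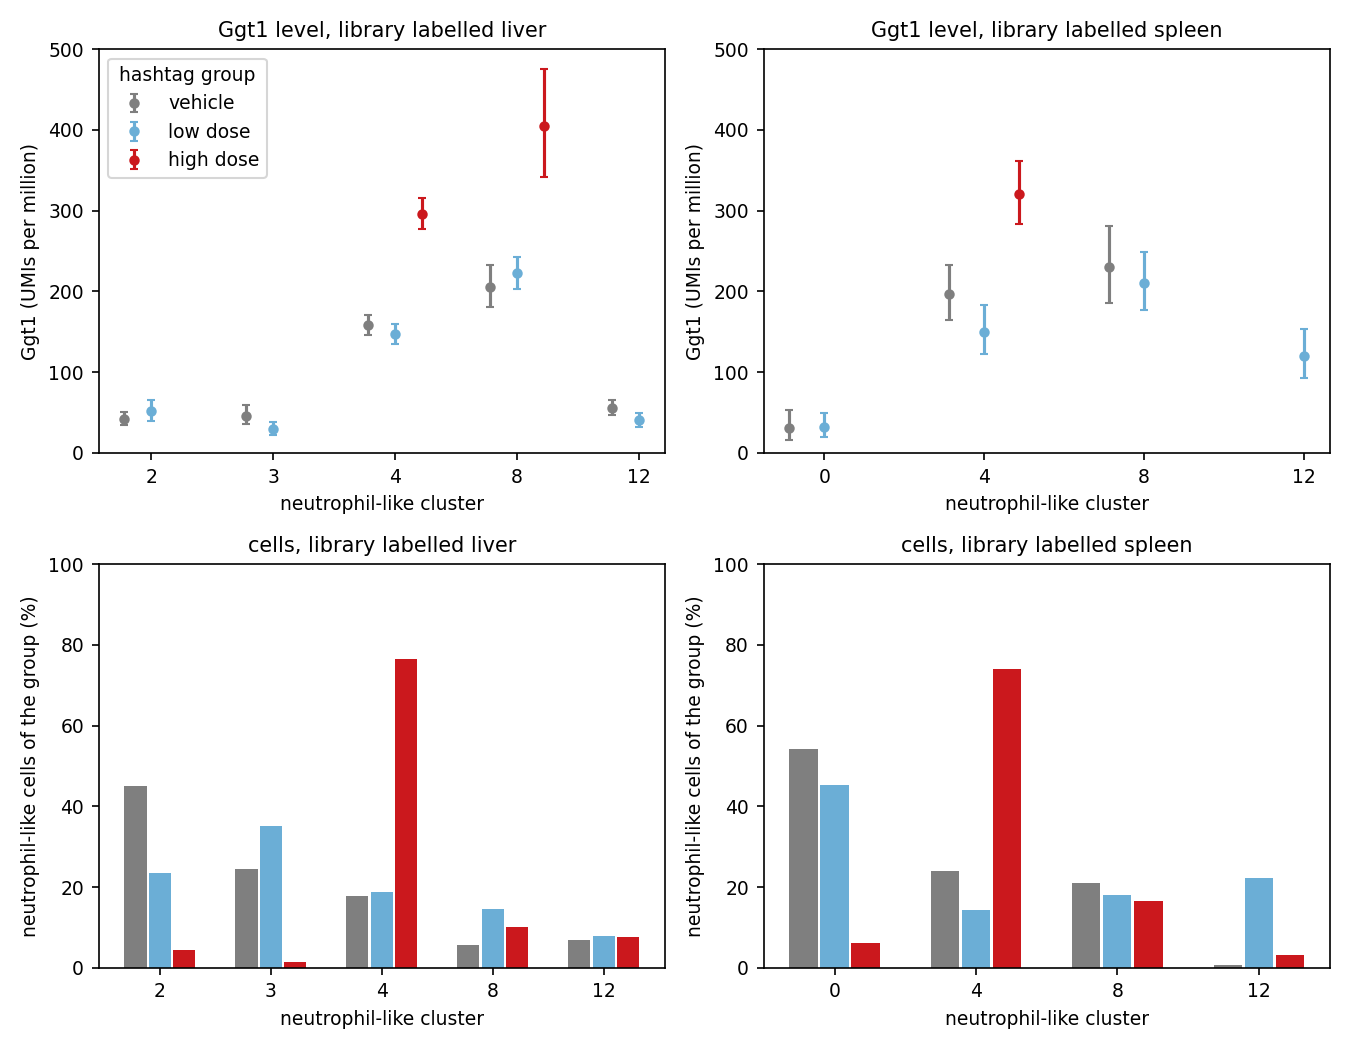
The upper panels give the Ggt1 level in CPM with exact 95% Poisson intervals in each neutrophil-like cluster and hashtag group with at least 20 cells. The lower panels give the percent of the group's neutrophil-like cells in each cluster. High dose points lie above the vehicle and low dose points of the same cluster (296 over 158 CPM in cluster 4 of the liver-labelled library, 321 over 196 CPM in cluster 4 of the spleen-labelled library).

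At the high dose most of the other members differed less from vehicle than Ggt1 did. Gstm1 in the spleen-labelled library differed more, with a log2 ratio of 2.48 against 0.92 for Ggt1. A gene was counted as past the fold when its level differed by at least 2-fold and it had at least 20 UMIs over both groups. All 9 members passed the UMI minimum at the high dose of the liver-labelled library. Ggt1 was the single member past 2-fold upward, where 1.22% of 9173 genes were, and Gclc the single member past it downward, where 16.9% were. Ggt1 was chosen for this value, so nothing is read from its count. The median log2 ratio was 0.20 over the 9 members, 0.15 without Ggt1, and -0.36 over all genes tested. Of the members, 7 passed the minimum in the spleen-labelled library. Gstm1 was the single one past 2-fold upward, against 3.76% of 5534 genes, and none was past it downward, against 7.91%. The medians there were 0.28, or 0.14 without Ggt1, and -0.09. At the low dose no member was past 2-fold in either library, where the shares of all genes were 0.722% upward and 2.98% downward in the liver-labelled library and 2.82% and 2.42% in the spleen-labelled library.

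Gclc and Gss were too sparse in neutrophil-like cells to order the groups. Gclc had 31 UMIs in the vehicle group, 24 at the low dose and 4 at the high dose of the liver-labelled library (2.57, 2.16 and 1.00 CPM). Its high dose log2 ratio of -1.36 had an interval of -3.32 to 0.14, which included 0. Gclc in the spleen-labelled library had 5, 6 and 4 UMIs. Gss had 28, 13 and 10 UMIs in the liver-labelled library (2.32, 1.17 and 2.50 CPM) and 2, 3 and 3 in the spleen-labelled library.

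Gclm was at 151 CPM in the vehicle group, 167 CPM at the low dose and 201 CPM at the high dose of the liver-labelled library, with a high dose log2 ratio of 0.41 (0.29 to 0.53). Spleen-labelled cells had it at 187, 191 and 186 CPM, with a ratio of -0.01 (-0.28 to 0.26). Gsr gave 143, 140 and 177 CPM in the liver-labelled library, a high dose ratio of 0.31 (0.18 to 0.44), and 165, 170 and 162 CPM in the spleen-labelled library, a ratio of -0.03 (-0.32 to 0.26). For both genes the high dose interval lay above 0 in the liver-labelled library and included 0 in the spleen-labelled library.

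Gpx1 and Mgst1 were modestly higher at the high dose in both libraries. Gpx1 was at 1593, 1678 and 1826 CPM in the liver-labelled library and 1541, 1411 and 1872 CPM in the spleen-labelled library, with high dose ratios of 0.20 (0.16 to 0.24) and 0.28 (0.19 to 0.37). Mgst1 was at 418, 453 and 515 CPM and at 341, 400 and 442 CPM, with high dose ratios of 0.30 (0.23 to 0.38) and 0.38 (0.19 to 0.56). For Mgst1 the low dose lay between vehicle and high dose in both libraries.

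Gpx4 was lower at the high dose in both libraries. It was at 274, 273 and 239 CPM in the liver-labelled library and at 313, 271 and 229 CPM in the spleen-labelled library. The high dose ratios were -0.20 (-0.30 to -0.09) and -0.45 (-0.68 to -0.23), beside medians over all genes tested of -0.36 and -0.09. Under 14 alternatives the liver-labelled ratio ran from -0.46 to 0.06 and changed sign in 1, so its direction depended on the processing. In the spleen-labelled library it ran from -0.93 to -0.12 and kept its sign.

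Within the stefin-led cluster most of these differences were smaller. There 8 members passed the minimum in the liver-labelled library and none was past 2-fold, where 2.13% of 7145 genes were higher and 2.81% lower by that much. Gclm had a high dose ratio of 0.16 (0.01 to 0.32), Gsr of 0.10 (-0.06 to 0.27), Mgst1 of 0.06 (-0.03 to 0.15) and Gpx4 of 0.05 (-0.09 to 0.20). Gpx1 kept an interval above 0 in cluster 4 of both libraries, with ratios of 0.15 (0.10 to 0.20) and 0.24 (0.13 to 0.35). In cluster 4 of the spleen-labelled library 6 members passed and none was past 2-fold, against 5.11% of genes upward and 2.53% downward. In cluster 8 of the liver-labelled library 6 passed and none was past it either, against 4.28% and 4.44%.

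Gstm1 showed a difference in 1 library, which depended on how the neutrophil-like cells were chosen. It had 49, 29 and 13 UMIs (4.06, 2.61 and 3.26 CPM) in the liver-labelled library and 7, 11 and 28 UMIs (4.67, 4.44 and 26.0 CPM) in the spleen-labelled library. The high dose ratio in the latter was 2.48 (1.25 to 3.92), and 12 of 96 high dose cells and 4 of 280 vehicle cells held a UMI. Of the 28 UMIs, 10 were in 1 cell, 5 in another and 13 in the rest, and in the vehicle group 4 of the 7 were in 1 cell. The ratio was 3.08 without the highest cell of each group, 0.90 with log-normalized clustering, 0.02 with a marker gate and -0.57 once granulocyte progenitor-like cells were added. The summed hepatocyte markers of these neutrophil-like cells moved with it, at 94.7 CPM in the vehicle group, 103 CPM at the low dose and 441 CPM at the high dose. Alb alone did not, at 21.3, 23.4 and 18.6 CPM, so the rise came from other markers of the list. The part of hepatocyte transcripts in the Gstm1 values was not tested.

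**Figure D4:**
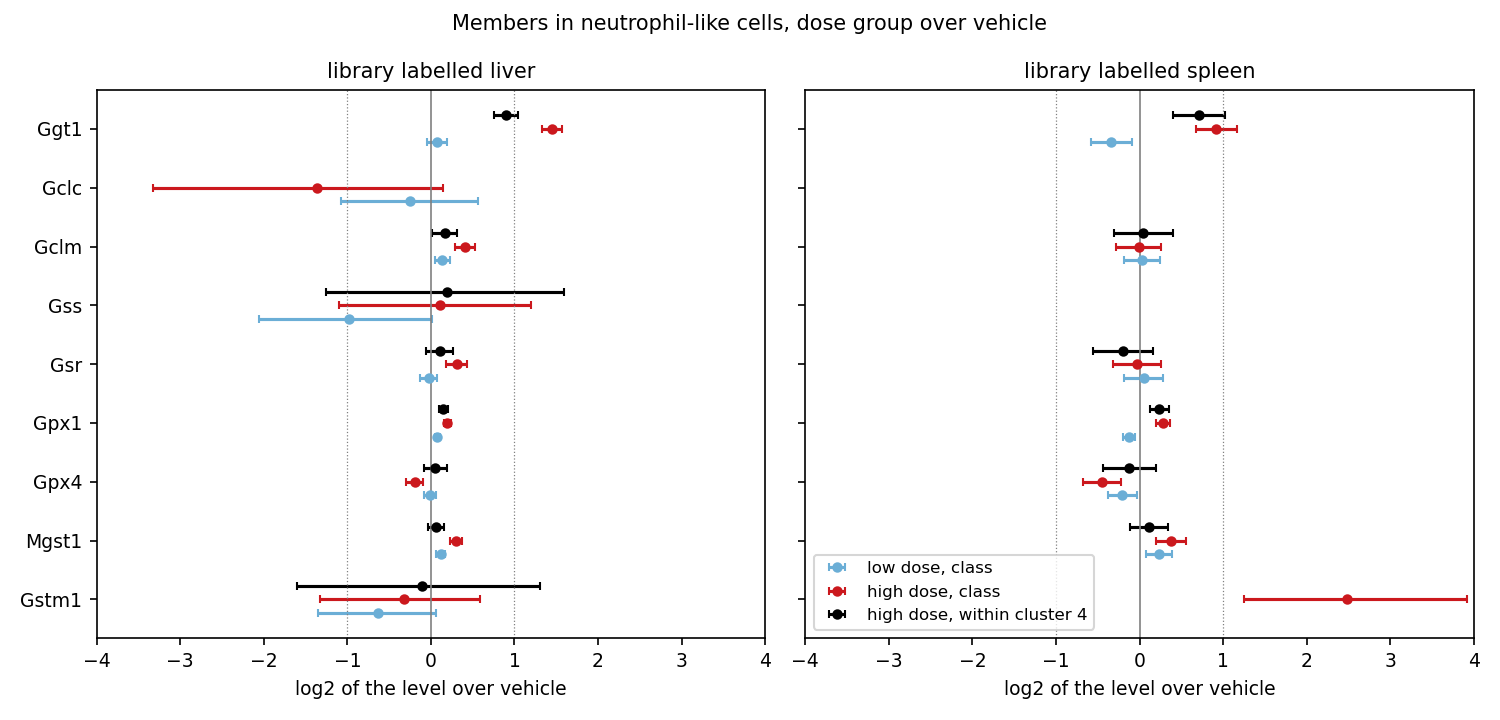
Points give the log2 ratio of each member's level over vehicle in neutrophil-like cells, at the low dose, at the high dose and at the high dose within cluster 4, with exact 95% intervals for counting error and dotted lines at 2-fold. Members with fewer than 20 UMIs over both groups are not drawn. Ggt1, which was chosen for its high dose value, is the member whose high dose points lie farthest above 0 in the liver-labelled library (1.45, and 0.90 within cluster 4). Gclc lies below 0 there (-1.36), and most others lie close to 0. In the spleen-labelled library Gstm1 (2.48) lies farther above 0 than Ggt1 (0.92).

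Ggt1 was also higher at the high dose in a cluster of granulocyte progenitor-like cells of the spleen-labelled library, where its level was low. Cluster 2 had 4 of the 6 fixed progenitor markers and was led by Camp, Ngp, Cebpe, Fcnb and Ltf, several of them genes of secondary granules. A cluster led by Ltf, Camp and Ngp in the liver-labelled library had been called neutrophil-like, so the class does not hold the same cells in both libraries. Cluster 2 held 13.7 CPM of Ggt1 in the vehicle group (8.37 to 21.2, 20 UMIs, 82 cells), 17.2 CPM at the low dose (25 UMIs, 87 cells) and 37.8 CPM at the high dose (27.8 to 50.3, 47 UMIs, 59 cells). The high dose interval lay clear of the others, and the ratio was 2.76-fold, 1.47 on the log2 scale (0.68 to 2.30). The cells of cluster 2 also differed in other genes. The high dose log2 ratio of the progenitor marker Elane was -0.70 (-0.78 to -0.62) and that of Camp -0.24 (-0.26 to -0.21). Cluster 9 of the same class, led by Ctsg and Mpo, had 1 Ggt1 UMI in 67 vehicle cells and 0 in 15 high dose cells. Over both clusters the log2 ratio was 2.09 (1.32 to 2.91), but cluster 2 held 82 of 149 vehicle and 59 of 74 high dose cells, so that value also carries the makeup of the class. The liver-labelled progenitor-like cells, all of the Elane-led and Prtn3-led cluster 10, held 14.0 CPM (51 UMIs), 7.27 CPM (23 UMIs) and 34.0 CPM (62 UMIs, 43 cells, 26.1 to 43.6).

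Among lymphocytes, Ggt1 stood above the neighbouring clusters in 1 cluster of T cell-like cells of the liver-labelled library. Cluster 5 had 34.4 CPM (28.8 to 40.8, 133 UMIs in 107 of 620 cells, at most 3 UMIs in a cell), while clusters 0, 6 and 13 had 5.21 CPM (3.52 to 7.44), 6.45 CPM (3.52 to 10.8) and 5.64 CPM (1.83 to 13.2). By group cluster 5 held 21.3 CPM (13.01 to 32.9) in the vehicle group, 38.9 CPM (28.9 to 51.1) at the low dose and 38.4 CPM (29.4 to 49.2) at the high dose. The intervals of the 3 groups overlapped. Cd8a, a chain of the CD8 co-receptor, stood at 388 CPM in cluster 5 and 1.56 CPM in cluster 0, and S100a8, an abundant neutrophil transcript, at 491 and 545 CPM. The cluster of spleen-labelled T cell-like cells with Cd8a among its leading genes had 9 Ggt1 UMIs, 7 of them in 1 cell.

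Mgst1 in B cell-like cells of the liver-labelled library moved with the makeup of the class. Over the whole class it was at 29.5 CPM in the vehicle group (62 UMIs), 10.9 CPM at the low dose (21 UMIs) and 10.7 CPM at the high dose (18 UMIs), with log2 ratios of -1.43 (-2.22 to -0.70) and -1.47 (-2.31 to -0.69). Of the 62 vehicle UMIs, 33 were in cluster 19, led by the surrogate light chain genes Vpreb1 and Vpreb3 of early B cells, which had 46 vehicle cells, 1 low dose cell and none of the high dose. Within cluster 1, which had cells of every group (418, 253 and 349), Mgst1 stood at 15.1, 10.98 and 11.3 CPM, and the high dose log2 ratio was -0.42 (-1.36 to 0.49), an interval that included 0. S100a8 stood at 537, 421 and 550 CPM in the same cells.

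Genes with a pattern like that of Ggt1 were sought over 39 sums of library, class and hashtag group with at least 50 cells, among 10518 genes. The highest Pearson r of log2(CPM + 10) was that of Chil5, a chitinase-like protein, at 0.951, followed by Gm26748 (0.9502), Scrg1 (0.946), AI463170 (0.945) and Stfa1, a stefin (0.936). The sums share libraries and differ in depth, so these values are descriptions. Among the members Gclm came highest, with r of 0.617 at rank 279, and Gclc lowest, with r of -0.638.

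The promoters of the members were searched for the core of the antioxidant response element, bound by NRF2, spelled TGACNNNGC, and for the AP-1 site, spelled TGANTCA, on both strands in RefSeq windows of GRCm38.p6 that reach from 250 bases before to 50 after a start site. Of the 9 members, 7 had a window, and 3 of these had the antioxidant core in at least 1 window (Ggt1, Gclm and Mgst1; 5 of 15 windows), against 12.4% of all 32851 windows. The AP-1 spelling was in none of the 15 windows and in 7.81% of all windows. The 5 stretches that held a match are shown, with the match in capitals and the strand of the gene. Where the capitals start with GC the match is the reverse complement.
Ggt1 at chr10:75564163-75564181, plus strand: cttgggcatcTGACACAGC
Ggt1 at chr10:75568616-75568644, plus strand: gaagggaggaGCTGGGTCActgctgggga
Ggt1 at chr10:75571467-75571495, plus strand: gtcacaagccTGACGCTGCgcctccttgc
Gclm at chr3:122245413-122245441, plus strand: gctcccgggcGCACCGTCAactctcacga
Mgst1 at chr6:138140461-138140489, plus strand: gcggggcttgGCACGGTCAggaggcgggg
In GENCODE release M21, the upper 2 Ggt1 matches and the Mgst1 match lay in exons annotated as UTR, the last Ggt1 match in an intron of Ggt1, and the Gclm match before the gene. A match describes letters and not a bound site, and Ggt1 has 4 windows, so it had more chances than a gene with 1.

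The wider pathway was described by 6 lists of other genes, compared between the high dose and the vehicle group of neutrophil-like cells. The share of all genes tested in the same comparison stands beside each count, and their median beside each median. Of the list for glutathione breakdown and cysteine supply, 7 of 18 genes passed the UMI minimum in the liver-labelled library, none was past 2-fold upward (1.22% of all genes) and 3 were past it downward (16.9%), with a median log2 ratio of -0.997 against -0.36 for all genes. These were the dipeptidase Dpep2 (20.6 to 6.76 CPM), the cystine transporter subunit Slc7a11 (7.71 to 2.50 CPM) and the cyclotransferase Ggct (5.64 to 2.50 CPM). Dpep2 was among the 4 most abundant genes of the list, and Slc7a11 and Ggct were named after their values were seen. Ggt5, a relative of Ggt1 that acts on leukotriene C4, was at 51.5, 46.9 and 25.8 CPM in the liver-labelled library, opposite in direction to Ggt1, with a high dose ratio of -0.997 (-1.31 to -0.69). Spleen-labelled cells had Ggt5 at 46.7, 52.1 and 39.0 CPM, with a ratio of -0.26 (-0.85 to 0.31). There 4 genes of the list passed, and none was past 2-fold upward (3.76% of all genes) or downward (7.91%).

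Of the NRF2 list, 11 of 12 genes passed in the liver-labelled library, 1 was past 2-fold upward (1.22% of all genes) and none downward (16.9%), with a median of -0.28 beside -0.36. The gene was Nqo1, a quinone reductase and a common NRF2 target, named after its values were seen, at 3.65 CPM in the vehicle group (44 UMIs) and 12.3 CPM at the high dose (49 UMIs), a log2 ratio of 1.75 (1.13 to 2.37). Spleen-labelled cells had 3 and 10 UMIs of Nqo1 in these groups. Fth1, the most abundant gene of the list, was lower at the high dose. Its ratios were -0.27 (-0.30 to -0.25) in the liver-labelled library and -0.61 (-0.65 to -0.57) in the spleen-labelled library. Ftl1, the next, had ratios of -0.12 (-0.15 to -0.09) and -0.05 (-0.11 to 0.01). The transcript of NRF2 itself, Nfe2l2, was at 121, 114 and 89.1 CPM in the liver-labelled library and 90.1, 112 and 72.5 CPM in the spleen-labelled library. Bach1, a repressor at the same sites, was at 97.0, 85.3 and 58.3 CPM in the liver-labelled library, a high dose ratio of -0.73 (-0.94 to -0.53). From the same list 10 genes passed in the spleen-labelled library, none past 2-fold (3.76% upward and 7.91% downward of all genes), with a median of -0.31 beside -0.09.

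Of the peroxidase and peroxiredoxin list, 9 of 12 genes passed in the liver-labelled library, with 1 past 2-fold upward (Srxn1, 15 and 17 UMIs) and 1 downward (Prdx4, 24 and 3 UMIs), against 1.22% and 16.9% of all genes, and a median of -0.21 beside -0.36. In the spleen-labelled library 5 passed and 2 were past it upward, Cat with 17 and 30 UMIs and Prdx2 with 19 and 29, against 3.76% of all genes, and none downward, against 7.91%. The median there was 0.91 beside -0.09. Prdx1 was higher at the high dose in both libraries, at 56.0 and 71.1 CPM in the liver-labelled library (ratio 0.34, 0.14 to 0.55) and 72.0 and 136 CPM in the spleen-labelled library (ratio 0.91, 0.54 to 1.29). Prdx5 and Prdx6, with more UMIs than Prdx1, were not higher in both. Prdx5 had high dose ratios of 0.04 (0.000272 to 0.07) in the liver-labelled library and -0.25 (-0.33 to -0.17) in the spleen-labelled library. Those of Prdx6 were -0.21 (-0.38 to -0.04) and -0.08 (-0.43 to 0.26). Prdx2 was among the 4 most abundant genes of the list, and the other calls were named after their values were seen.

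The list of thioredoxin, glutaredoxin and NADPH supply genes held several abundant genes. Of its 17 genes, 15 passed in the liver-labelled library, none past 2-fold upward (1.22% of all genes) and 2 downward (Glrx5 and Txnrd2, against 16.9%), with a median of 0.21 beside -0.36. In the spleen-labelled library 13 passed, none past 2-fold (3.76% and 7.91% of all genes), with a median of 0.31 beside -0.09. Glrx, the cytosolic glutaredoxin, had high dose ratios of 0.39 (0.32 to 0.46) and 0.33 (0.17 to 0.49). Tkt, a transketolase of the pentose phosphate pathway, had 0.38 (0.32 to 0.44) and 0.31 (0.17 to 0.45). The 2 genes of the list with more UMIs had smaller ratios. Those of Txn1 were 0.21 (0.17 to 0.25) and 0.23 (0.14 to 0.33). Those of Taldo1 were -0.09 (-0.15 to -0.04) and 0.09 (-0.04 to 0.22).

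The other transferases were sparse in neutrophil-like cells, except Mgst2. It was at 74.7, 76.7 and 85.6 CPM in the liver-labelled library and 62.7, 29.1 and 71.6 CPM in the spleen-labelled library. Its high dose ratios were 0.20 (0.01 to 0.38) and 0.19 (-0.26 to 0.64). Of the 23 listed, 6 passed in the liver-labelled library. Of these, 4 were past 2-fold downward (Gstp1, Gstp3, Gstz1 and Gsto1, none with over 42 UMIs in the vehicle group). None was past it upward, against 16.9% and 1.22% of all genes downward and upward. The median of the 6 was -1.50 beside -0.36. From the list 2 passed in the spleen-labelled library, with Gsta3 past it upward (3.76% of all genes) and none downward (7.91%). Gsta3 had 0 UMIs in vehicle cells and 41 UMIs at the high dose, and 25 of the 41 were in 1 cell. That was 19.0-fold against the floor, with an exact lower bound of 3.89 on the log2 scale. Liver-labelled neutrophil-like cells held 0 UMIs of Gsta3 in every group. The summed hepatocyte markers were also higher in these high dose cells, as given for Gstm1, and their part in the Gsta3 values was not tested. With Gsta3 at the floor value the median of the 2 genes was 2.22, beside -0.09. Of the leukotriene list, 6 of 8 genes passed in the liver-labelled library, 1 past 2-fold downward (Ltc4s, 39 and 2 UMIs, against 16.9% of all genes) and none upward (1.22%), with a median of 0.24 beside -0.36. In the spleen-labelled library 5 passed, 1 upward (Pla2g4a, 7 and 14 UMIs, against 3.76%) and none downward (7.91%), with a median of 0.23 beside -0.09. Alox5ap, which presents arachidonate to 5-lipoxygenase, had high dose ratios of 0.36 (0.33 to 0.39) and 0.23 (0.17 to 0.29). The less abundant genes of these lists were named after their values were seen. No gene of the 6 lists passed the UMI minimum and was past 2-fold in the same direction in both libraries.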

How the data were processed

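Single-cell RNA of 2 droplet libraries, each holding 3 hashtag groups, was measured. The deposited values were UMI counts per gene and barcode, which the authors made with Cell Ranger (version 6.0.0 in the submitters' processing notes, 5.0.0 in the file header) on mm10. No normalization had been applied to the deposited counts.

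Hashtags were assigned with HTODemux at a quantile of 0.99 in Seurat 5.3.0 (R 4.3.3), and doublet and negative barcodes were left out. Cells were normalized with sctransform 0.4.2 and clustered on 30 principal components at a resolution of 0.8, with 99 genes (the members and the lists) kept out of the variable features. The suffix "-like" was given to a cluster in which 3 or more fixed markers had a log2 fold of at least 1 (10 CPM added) in at least 20% of its cells and its top 10 genes held no more markers of another type. Scrublet in scanpy 1.11.5 marked 2.59% of barcodes of the liver-labelled library and 0.0207% of the spleen-labelled library, where it did not work, and it served only as an alternative.

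UMIs were summed per library, class and group and divided by the summed UMIs (CPM) in Python 3.11.15. Intervals were exact at 95%: Poisson for levels, conditional binomial for ratios and Clopper-Pearson for shares (scipy 1.17.1, numpy 2.4.6). A gene needed 20 UMIs over both groups, and a group at 0 UMIs was set to a floor of 3 counts per group. The levels and shares that a count of 0 allows were also computed from that floor, not from the exact intervals. With 1 pooled sample per group no test was run. The calculation was tested on simulated data. Named genes were the 9 members, list genes past 2-fold in the same direction in both libraries (0 genes), up to 4 of the most abundant genes of each list and the 5 genes with the pattern most like Ggt1. The members and lists were chosen with earlier results of these data known. Alternatives covered clustering, hashtag assignment, cell filters, scaling, thinning, gene minimum and fold, and their effect is given at the end. Sequences came from RefSeq (GRCm38.p6) and positions from GENCODE release M21. Promoter windows were found for 7 of the 9 members.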

Additional observations from a re-analysis of the deposited data

Results flagged for a closer look

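Gpx1 at the low dose went opposite ways in the neutrophil-like cells of the 2 libraries. Its log2 ratio over vehicle was 0.0747 (0.05 to 0.10) in the liver-labelled library, from 1593 to 1678 CPM, and -0.13 (-0.20 to -0.05) in the spleen-labelled library, from 1541 to 1411 CPM. Each value came from 1 pooled sample per group, both differences were small, and the difference between the libraries was not tested.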

How the results depend on the processing

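Of 658 values under alternatives, 536 stayed within the interval or margin of the reported value, 121 moved and 1 reversed. A change of sign alone was not counted as reversed, and several ratios near 0 changed sign. In liver-labelled neutrophil-like cells the low dose ratios of Gsr and Gpx4 each did so in 8 of 14 alternatives. In spleen-labelled ones the high dose ratios of Gclm and Gsr did so in 7 and 6 of 14. The Gpx1 ratios kept their sign throughout. No paired analysis was possible because each group was 1 pooled sample per library and no replicate numbers were given. Alternatives with a fixed cluster makeup, without the highest cell, or within 1 B cell-like or progenitor-like cluster were chosen after seeing the data. The Ggt1 high dose log2 ratio stayed above 0 under all 18 alternatives in the liver-labelled library (0.90 to 2.21) and all 17 in the spleen-labelled library (0.58 to 1.42), at 2-fold or more in 15 and 6.

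In the liver-labelled library that ratio was 1.26 with a marker gate, 2.21 as a mean over cells, 1.57 without the 20 most abundant genes, 1.71 with median-of-ratios scaling, 1.30 with progenitor-like cells added, 2.21 thinned, 0.90 in cluster 4, 0.97 in cluster 8, and 0.92 and 1.24 with the cluster makeup of the high dose and vehicle groups. The low dose ratio was 0.37 as a mean over cells, 0.38 thinned, 0.29 in cluster 2, -0.64 in cluster 3, -0.11 in cluster 4, -0.48 in cluster 12, and -0.0705 and -0.0820 with fixed makeup. In the spleen-labelled library the high dose ratio was 1.42 as a mean over cells, 1.28 with progenitor-like cells, 1.29 thinned, and 0.63 and 0.58 with fixed makeup, and the low dose ratio was 0.0778 with the gate, -0.0117 with progenitor-like cells and 0.0672 in cluster 0. The Gstm1 ratio there was -0.57 with progenitor-like cells.

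At the high dose of the liver-labelled library 0 members were past 2-fold downward with the gate, with progenitor-like cells or thinned, and 2 upward when thinned. At its low dose 2 were past 1.5-fold downward, and 1 was past 2-fold with log-normalization, without Scrublet doublets or with progenitor-like cells. At the high dose of the spleen-labelled library 2 were upward with no UMI minimum, at 1.5-fold, with MULTIseqDemux, with the dominant hashtag, at a resolution of 0.4 or as a mean over cells, and 0 with log-normalization or the gate; at its low dose 1 was downward with the gate. Thinned to 500 UMIs, the shares of cells with a Ggt1 UMI were 3.06%, 4.33% and 10.05% (liver-labelled) and 3.21%, 2.81% and 17.7% (spleen-labelled); not thinned they were 29.95%, 35.9% and 91.4%, and 34.3%, 29.2% and 89.6%. With a pseudocount of 1, 3 of the 5 genes most like Ggt1 kept their place among the top 5. The causes were not tested. Depth limits Gclc, Gss and Gstm1 in neutrophil-like cells, and mouse-to-mouse spread was not measured.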

Other observations

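A few cells carried Ggt1 UMIs in other myeloid classes at the high dose. Monocyte-like cells of the liver-labelled library held 12 UMIs in 5 of 26 cells. The macrophage-like cells of the spleen-labelled library held 17 UMIs in 4 of 124 cells, against 0 UMIs in 58 vehicle cells, which allows up to 3.90 CPM.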
